A study of Homo sapiens with 12 samples.

Results

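The genes described are EGF-family ligands and the ERBB receptors they act on: HBEGF, AREG, EREG, TGFA and NRG1 as ligands, and EGFR, ERBB2 and ERBB3 as receptors. These 8 genes were taken by symbol from the RNA immunoprecipitation table and followed by Ensembl identifier into the table of read counts. They are 8 of the 27745 genes of the count table and 8 of the 60675 genes of the immunoprecipitation table. The list was drawn up with results of these data already known. The genes are to be taken as selected on their differences between the hairpin groups and on their RIP ratios, since both were in view, and no threshold is stated for the choice. Their values and calls below are a description of these libraries and support no statement about the family as a class. The other genes of the family, EGF, BTC, EPGN, NRG2, NRG3, NRG4 and ERBB4, number 7 and are given beside them.

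All libraries came from MDA-MB231, an established human breast cancer cell line. Knockdown cells stably expressed a lentiviral short hairpin RNA against TDP43 (sh_TDP43) or against SRSF3 (sh_SRSF3), and the cells they are set against a control hairpin (sh_control), with 2 RNA-seq libraries per group. TARDBP encodes TDP43, which binds UG-rich RNA, and SRSF3 belongs to the SR family of splicing regulators. For RNA immunoprecipitation (RIP), cells overexpressed Flag-TDP43 or Flag-SRSF3, RNA was pulled down with a Flag antibody, and each protein had 1 RIP library and 1 input library. Stable selection is a property of the knockdown groups, the control hairpin included, and the labels name 1 hairpin group per target without the hairpin sequences. A combined knockdown of TDP43 and SRSF3 is also labelled and is not analysed here. The labels say that RNA was taken in duplicate but not whether the duplicates were separate cultures. P-values then rest only on gaps between libraries of the same group, pooled over the groups and partly shared across genes. These gaps are possibly technical. As chi-square per gene between the 2 libraries of a group, they were 12.2 in sh_TDP43, 11.3 in sh_SRSF3 and 23.1 in sh_control. The gap was thus widest in the group that both knockdowns are set against, while the test pools the groups. In bulk RNA, fewer cells of a kind and less RNA per cell cannot be told apart.

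EGF-family ligands are made as membrane-anchored precursors and are released by cell-surface proteases, chiefly ADAM17 for HBEGF, AREG, EREG and TGFA. HBEGF, AREG, TGFA, EREG, BTC, EGF and EPGN bind EGFR, while neuregulins such as NRG1 bind ERBB3 and ERBB4. ERBB2 has no known soluble ligand and serves as the preferred dimer partner, and ERBB3 has little kinase activity of its own but couples well to PI3 kinase. Active receptors signal through RAS and ERK, which induces its own brakes (sprouty proteins, dual-specificity phosphatases) and several of the ligand genes. Triple-negative breast cancer lines commonly carry high EGFR and little hormone-receptor RNA.

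Counted reads were 34992427 and 34457445 in the sh_TDP43 libraries, 35912547 and 38326930 in the sh_SRSF3 libraries, and 37486911 and 37987194 in the sh_control libraries. Levels are given as CPM, counts scaled to library size by TMM, and between genes as RPKM, that is CPM per kilobase of exon. TARDBP was at 34.4 and 31.3 CPM in sh_TDP43, at 108 and 102 CPM in sh_SRSF3, and at 168 and 125 CPM in sh_control. SRSF3 was at 187 and 180 CPM in sh_TDP43, at 64.1 and 61.7 CPM in sh_SRSF3, and at 459 and 404 CPM in sh_control. Each hairpin's own target was therefore lowest in its own group, and SRSF3 was also lower in sh_TDP43 than in sh_control by 1.23 on the log2 scale (log2 fold change -1.23, SE 0.10). TARDBP was likewise lower in sh_SRSF3 than in sh_control (log2 fold change -0.48, SE 0.12, edgeR adjusted p = 0.00326), a call lost without sh_control replicate 1 (-0.25, edgeR adjusted p = 0.0571). Mesenchymal breast-line markers (VIM, CD44, CAV1, MSN, LGALS1 and S100A4) were all detected, with summed levels of 4239 to 4476 CPM in sh_TDP43, 4750 to 5031 CPM in sh_SRSF3 and 5991 to 6078 CPM in sh_control. Of the mesenchymal markers in sh_SRSF3, CAV1 was called higher (1171 against 791 CPM in sh_control) and the other 5 lower. Luminal markers summed to 24.9 to 28.7 CPM in sh_TDP43, 15.8 to 19.6 CPM in sh_SRSF3 and 29.8 to 40.5 CPM in sh_control. Among them ESR1 was under 2 CPM, and PGR and FOXA1 were at or near 0, in every group. In sh_TDP43, sh_SRSF3 and sh_control, GATA3 averaged 11.9, 9.64 and 10.9 CPM. TFF1 averaged 5.48, 3.59 and 5.67 CPM, and AGR2 8.80, 3.11 and 18.0 CPM, in the same order. Fibroblast markers summed to 19.5 to 19.9 CPM in sh_TDP43, 25.9 to 27.7 CPM in sh_SRSF3 and 21.8 to 23.0 CPM in sh_control, and haematopoietic markers to 2.81 to 4.31 CPM in sh_TDP43, 0.443 to 0.931 CPM in sh_SRSF3 and 2.29 to 3.0 CPM in sh_control. The part of these marker differences in the results below was not tested.

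The starts of 4 ligand genes are shown because their RNA differed between the groups and their upstream sequences are of different kinds. Promoters of 6 of the 8 genes were found in the RefSeq table; NRG1 and ERBB3 were not. Each line holds the 250 bases upstream of the annotated start, 5′ to 3′ on the gene's strand, from RefSeq on GRCh38.p14. The windows are chr5:140346604-140346853 (minus strand) for HBEGF, chr2:70553827-70554076 (minus strand) for TGFA, chr4:74364895-74365144 (plus strand) for EREG and chr4:74444886-74445135 (plus strand) for AREG. Capitals mark matches on either strand to the TATA box TATAAA, the cyclic AMP response element TGACGTCA or the GC box GGGCGG. They likewise mark the E box CACGTG and the AP-1-like letters TGANTCA, where N is any base. A TGANTCA match need not be a consensus AP-1 site.
HBEGF: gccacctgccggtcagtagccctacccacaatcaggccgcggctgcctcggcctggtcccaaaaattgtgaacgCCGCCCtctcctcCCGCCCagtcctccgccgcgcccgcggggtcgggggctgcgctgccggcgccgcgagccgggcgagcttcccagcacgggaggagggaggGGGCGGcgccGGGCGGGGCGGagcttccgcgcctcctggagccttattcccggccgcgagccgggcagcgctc
TGFA: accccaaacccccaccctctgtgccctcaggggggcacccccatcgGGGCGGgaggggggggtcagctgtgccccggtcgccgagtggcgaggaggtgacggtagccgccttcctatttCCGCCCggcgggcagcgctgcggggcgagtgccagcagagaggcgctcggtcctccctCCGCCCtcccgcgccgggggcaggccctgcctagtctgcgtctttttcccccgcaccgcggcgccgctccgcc
EREG: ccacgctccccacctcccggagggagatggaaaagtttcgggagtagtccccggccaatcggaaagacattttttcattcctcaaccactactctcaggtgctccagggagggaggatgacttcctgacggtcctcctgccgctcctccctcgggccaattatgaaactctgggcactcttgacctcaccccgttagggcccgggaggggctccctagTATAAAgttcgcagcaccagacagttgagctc
AREG: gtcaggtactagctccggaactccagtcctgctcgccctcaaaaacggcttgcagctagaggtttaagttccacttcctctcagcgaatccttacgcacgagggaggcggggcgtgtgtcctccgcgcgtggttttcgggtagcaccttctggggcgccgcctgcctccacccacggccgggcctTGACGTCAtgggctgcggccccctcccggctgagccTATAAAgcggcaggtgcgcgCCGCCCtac

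The HBEGF window held 5 GC boxes, 2 of which overlap by 1 base, and the TGFA window held 3, with neither a TATA box nor a cyclic AMP response element in these letters. The EREG window held a TATA box 32 to 27 bases upstream of the start. The AREG window held a TATA box 29 to 24 bases upstream, a cyclic AMP response element 65 to 58 bases upstream and a GC box 9 to 4 bases upstream. Of 35116 promoter windows of the same length, 42.6% held a GC box, 10.7% a TATA box and 6.57% a TGANTCA match. An E box was in 6.34% and a cyclic AMP response element in 1.65%. GC content was 76.4% in the HBEGF window, 75.6% in the TGFA window, 65.2% in the AREG window and 58.0% in the EREG window, against a median of 58.0% over all windows. Among the receptors, the EGFR window held 2 GC boxes and the ERBB2 window 1 match to TGANTCA. That match read TGATTCA, with T at the open base. Each window belongs to 1 annotated start, which need not be the start most used in these cells. TGFA and EGFR each had 2 entries, of which 1 was used. A match describes the letters only, and binding at these windows was not measured.

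All 5 ligands of the list had less RNA in sh_TDP43 than in sh_control. In sh_SRSF3, HBEGF, TGFA, EREG and NRG1 were lower than in sh_control and AREG was higher. HBEGF and TGFA had the largest falls among the 8 genes in sh_TDP43, where they were 6.82-fold and 4.55-fold lower than in sh_control. The receptors EGFR and ERBB2 stayed within 1.19-fold of sh_control in both knockdowns, while ERBB3 was 2.48-fold higher in sh_SRSF3. The knockdown comparisons share the same 2 sh_control libraries.

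With edgeR's quasi-likelihood test over 15026 genes and a Benjamini-Hochberg adjusted p under 0.05, 5 of the 8 genes were lower and 0 higher in sh_TDP43 than in sh_control, where 24.1% of all genes tested were called lower, 20.7% higher and 44.8% in either direction. In sh_SRSF3 4 were lower and 3 higher, where 34.4% of all genes were called lower, 32.5% higher and 66.9% in either direction. In sh_TDP43 against sh_SRSF3, 5 were lower and 0 higher, where 32.0% of all genes were called lower, 33.5% higher and 65.5% in either direction. Nothing is read from these counts, since the list was chosen with these contrasts known. The median log2 fold change over the 8 genes was -0.96 in sh_TDP43, -0.21 in sh_SRSF3 and -0.61 between the knockdowns, beside 0.00, -0.03 and 0.04 over all genes tested. Upper-quartile scaling in place of TMM moved the median of all genes by 0.09, -0.15 and 0.25 in these 3 comparisons. Under it 57.1% of called genes were higher in sh_TDP43 than in sh_control, against 46.2% with TMM, 39.7% were higher in sh_SRSF3 than in sh_control, against 48.6% with TMM, and 65.6% were higher in sh_TDP43 than in sh_SRSF3, against 51.2% with TMM.

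**Figure D1:**
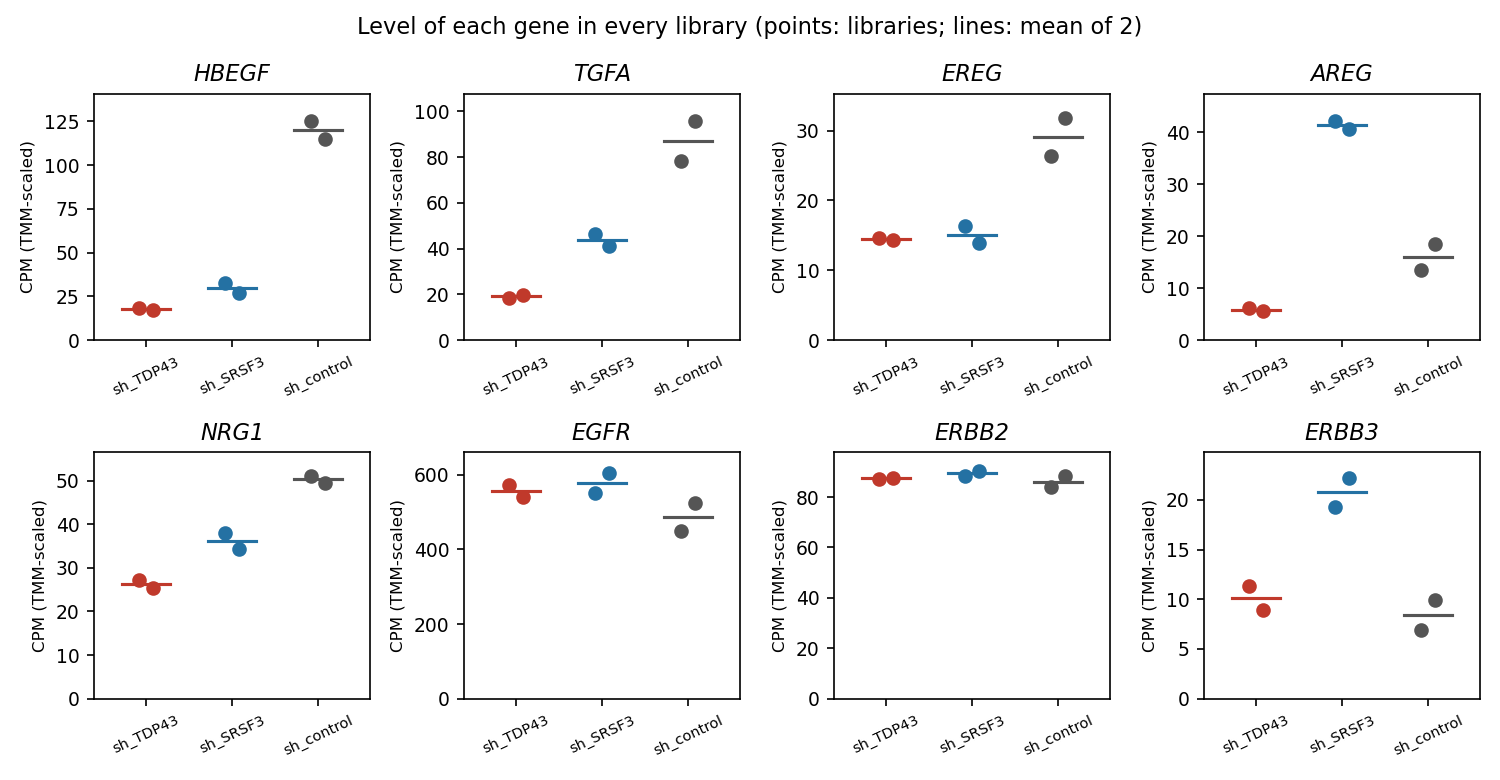
Level of each of the 8 genes in every library, in TMM-scaled CPM (y axis, linear, from 0, a different range in each panel), for sh_TDP43, sh_SRSF3 and sh_control on the x axis; points are libraries and lines the mean of 2. HBEGF lies at 17.0 and 18.3 CPM in sh_TDP43 against 115 and 125 CPM in sh_control, AREG is highest in sh_SRSF3, and ERBB2 spans 84.0 to 90.3 CPM over all libraries.

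HBEGF (ENSG00000113070; GRCh37 chromosome 5, 139712428 to 139726216, minus strand) encodes heparin-binding EGF-like growth factor, whose precursor is also the receptor for diphtheria toxin in human cells. It was at 18.3 and 17.0 CPM in sh_TDP43, at 32.9 and 26.7 CPM in sh_SRSF3, and at 125 and 115 CPM in sh_control. The 3 groups did not overlap, and both knockdowns lay far below sh_control. The log2 fold change was -2.77 (SE 0.12, 95% interval -3.03 to -2.51) in sh_TDP43 and -2.01 (SE 0.12, -2.26 to -1.76) in sh_SRSF3. Set directly against each other, sh_TDP43 was lower than sh_SRSF3 by a log2 fold change of -0.76 (SE 0.12, -1.01 to -0.51). Per length, HBEGF had the highest mean of the 8 genes in sh_control, at 39.8 ± 2.32 RPKM (SD, n = 2), beside EGFR at 38.9 ± 4.21 RPKM, whose libraries overlapped it. In sh_TDP43 it stood at 5.83 ± 0.307 RPKM, below EGFR and ERBB2.

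TGFA (ENSG00000163235; GRCh37 chromosome 2, 70674412 to 70781325, minus strand) encodes transforming growth factor alpha, an EGFR ligand that many carcinoma lines produce for themselves. It was at 18.5 and 19.8 CPM in sh_TDP43, at 46.3 and 41.2 CPM in sh_SRSF3, and at 78.2 and 96.0 CPM in sh_control. The groups were ordered as for HBEGF, without overlap. On the log2 scale TGFA differed from sh_control by -2.19 (SE 0.12, -2.45 to -1.93) in sh_TDP43 and -1.0 (SE 0.12, -1.24 to -0.75) in sh_SRSF3. Between the knockdowns, sh_TDP43 over sh_SRSF3, it was -1.19 (SE 0.12, -1.45 to -0.93).

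EREG (ENSG00000124882; GRCh37 chromosome 4, 75230860 to 75254468, plus strand) encodes epiregulin, which binds EGFR and ERBB4. It was at 14.7 and 14.4 CPM in sh_TDP43, at 16.3 and 13.9 CPM in sh_SRSF3, and at 26.3 and 31.8 CPM in sh_control. Both knockdowns lay below sh_control and overlapped each other. On the log2 scale the difference from sh_control was -1.0 (SE 0.14, -1.29 to -0.70) in sh_TDP43 and -0.94 (SE 0.14, -1.24 to -0.65) in sh_SRSF3. Between the knockdowns it was -0.05, with an interval of -0.36 to 0.25.

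AREG (ENSG00000109321; GRCh37 chromosome 4, 75310851 to 75320726, plus strand) encodes amphiregulin, a ligand of EGFR. It was at 6.19 and 5.53 CPM in sh_TDP43, at 42.1 and 40.7 CPM in sh_SRSF3, and at 13.5 and 18.5 CPM in sh_control. The knockdowns lay on opposite sides of sh_control, and no groups overlapped. In log2 terms AREG differed from sh_control by -1.45 (SE 0.16, -1.80 to -1.11) in sh_TDP43 and 1.37 (SE 0.15, 1.05 to 1.69) in sh_SRSF3. Set directly against each other, sh_TDP43 was 7.07-fold lower than sh_SRSF3, a log2 fold change of -2.82 (SE 0.16, -3.17 to -2.48). In RPKM, AREG ranked second of the 8 genes in sh_SRSF3, at 25.1 ± 0.588 (SD, n = 2), after EGFR alone, and stood at 3.56 ± 0.280 in sh_TDP43 and 9.73 ± 2.14 in sh_control.

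The count of AREG is uncertain because the GRCh37 annotation holds a near copy of it, ENSG00000205595 (chromosome 4, 75480629 to 75490486, plus strand), 159.9 kb downstream, with 1647 bases of exon against 1648 in AREG. Reads that match both copies equally are left out of such counts. The near copy had 37 and 44 reads in sh_TDP43, 68 and 72 in sh_SRSF3, and 32 and 66 in sh_control, beside 228 and 207, 1402 and 1471, and 503 and 710 reads of AREG in the same libraries. With the copies summed, a setting added once the counts had been seen, the log2 fold change of AREG was -1.32 in sh_TDP43, 1.33 in sh_SRSF3 and -2.64 between the knockdowns. The direction of each difference was thus the same whether or not the copy was added, while the level of AREG against other genes is less sure.

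EPGN, EREG, AREG and BTC lie in this order on chromosome 4 within 545.7 kb of GRCh37. There are 49.8 kb between EPGN and EREG and 56.4 kb between EREG and AREG. BTC is 349.2 kb from AREG, on the minus strand, with the near copy of AREG between them. These genes did not share 1 pattern. EREG was lower in both knockdowns, AREG was lower in sh_TDP43 and higher in sh_SRSF3, and EPGN had at most 9 reads in any library. BTC, which encodes betacellulin, was at 2.66 and 2.78 CPM in sh_TDP43, at 0.601 and 0.665 CPM in sh_SRSF3, and at 2.72 and 4.62 CPM in sh_control. Its log2 fold change was -0.43 in sh_TDP43 (SE 0.31, adjusted p = 0.270 with edgeR) and -2.53 in sh_SRSF3 (SE 0.36, adjusted p = 2.25e-05 with edgeR).

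NRG1 (ENSG00000157168; GRCh37 chromosome 8, 31496902 to 32622548, plus strand) encodes neuregulin 1, a ligand of ERBB3 and ERBB4. It was at 27.3 and 25.5 CPM in sh_TDP43, at 38.1 and 34.4 CPM in sh_SRSF3, and at 51.1 and 49.5 CPM in sh_control. The groups were ordered as for HBEGF and TGFA, without overlap but over a narrower range. In log2 terms NRG1 differed from sh_control by -0.93 (SE 0.11, -1.16 to -0.70) in sh_TDP43 and -0.47 (SE 0.11, -0.70 to -0.25) in sh_SRSF3. Between the knockdowns it was -0.46 (SE 0.11, -0.69 to -0.23), and with upper-quartile scaling -0.21, which no longer passed the threshold (edgeR adjusted p = 0.101).

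EGF, the family's prototype, had the reverse of AREG's order of groups. It was at 10.9 and 14.8 CPM in sh_TDP43, at 0.991 and 1.44 CPM in sh_SRSF3, and at 4.17 and 4.23 CPM in sh_control. The 3 groups did not overlap, with sh_TDP43 highest and sh_SRSF3 lowest. Its log2 fold change was 1.61 in sh_TDP43 (SE 0.22, edgeR adjusted p = 4.56e-05) and -1.78 in sh_SRSF3 (SE 0.26, edgeR adjusted p = 2.83e-05). Between the knockdowns it was 3.39 (SE 0.25, edgeR adjusted p = 4.84e-08). In RPKM, EGF stood at 2.09 ± 0.447 in sh_TDP43, 0.198 ± 0.0518 in sh_SRSF3 and 0.685 ± 0.00656 in sh_control (SD, n = 2 each).

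NRG2, a further neuregulin, was at most 1.18 CPM in any library. Its log2 fold change was -4.26 in sh_SRSF3 (SE 0.69, edgeR adjusted p = 7.99e-05), where it was at 0.0601 and 0.0554 CPM against 1.18 and 1.15 CPM in sh_control. In sh_TDP43, at 0.488 and 0.374 CPM, it was -1.43 (SE 0.51, edgeR adjusted p = 0.0340), a call lost when any 1 sh_TDP43 or sh_control library was left out. EPGN, NRG3, NRG4 and ERBB4 did not pass the low-count filter, and NRG3 had no reads in any library. Of the 7 other genes of the family, 3 were thus tested. In sh_TDP43, 1 was called higher (EGF) and 1 lower (NRG2), and in sh_SRSF3 all 3 tested were called lower.

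**Figure D2:**
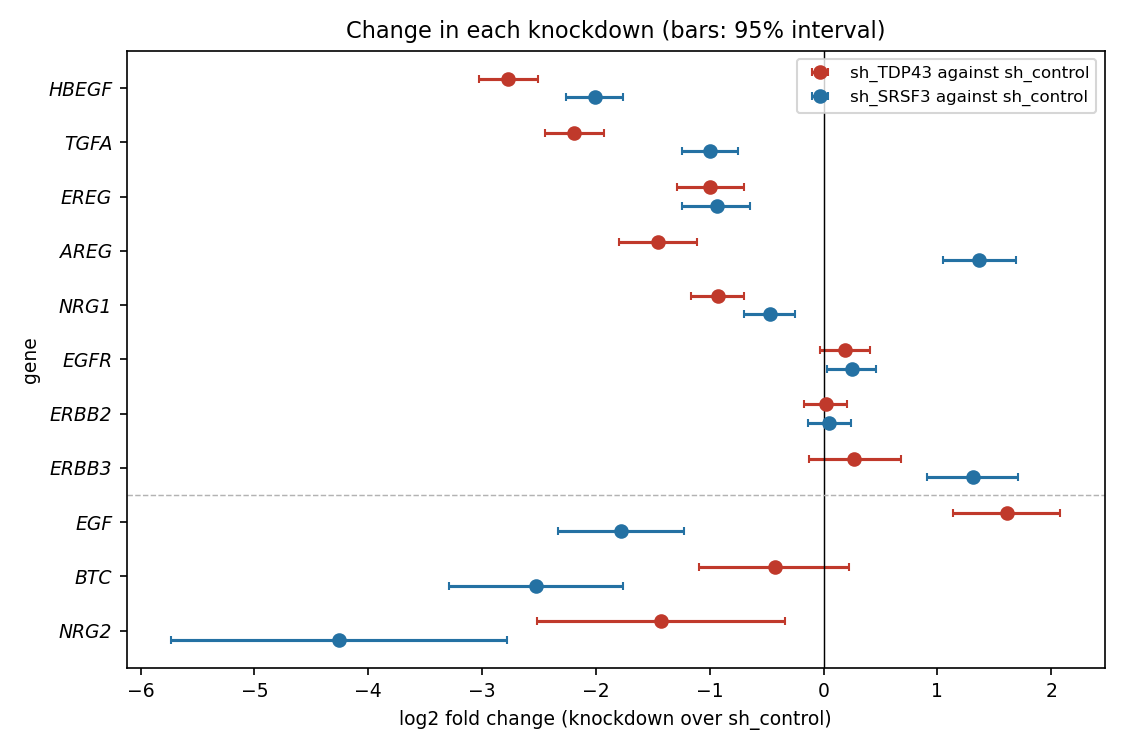
Log2 fold change of each knockdown over sh_control (x axis) for the 8 genes and, under the dashed line, the 3 other tested genes of the family (y axis). Points are edgeR estimates and bars their 95% intervals, red for sh_TDP43 and blue for sh_SRSF3. AREG (-1.45 and 1.37) and EGF (1.61 and -1.78) lie on opposite sides of 0 in the knockdowns, and ERBB2 lies at 0.02 and 0.05.

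Summed per exon length, RNA of the 7 ligand genes of EGFR was at 18.8 and 19.0 RPKM in sh_TDP43, at 49.1 and 44.9 RPKM in sh_SRSF3, and at 71.7 and 76.8 RPKM in sh_control. The sum was lower in both knockdowns, without overlap, and its make-up also differed. HBEGF made up 32.2% and 29.6% of it in sh_TDP43, 22.2% and 19.7% in sh_SRSF3, and 57.8% and 49.7% in sh_control. AREG made up 20.0% and 17.7% in sh_TDP43, 52.1% and 55.1% in sh_SRSF3, and 11.5% and 14.6% in sh_control. AREG thus held the place in sh_SRSF3 that HBEGF held in sh_control. TGFA kept a like share throughout, at 19.8% and 21.1% in sh_TDP43, 19.0% and 18.5% in sh_SRSF3, and 22.0% and 25.2% in sh_control. EGF made up 9.44% and 12.7% in sh_TDP43 and under 1% in each library of the other groups. The share of AREG may be understated, since reads that fit its near copy equally well are not counted.

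**Figure D3:**
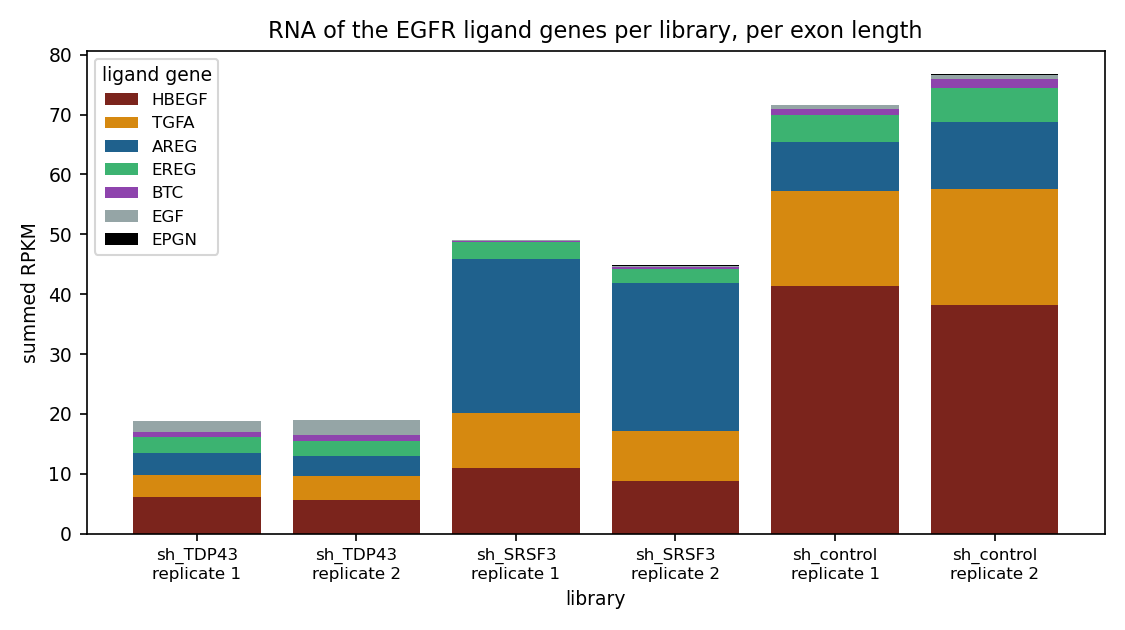
Summed RPKM of the 7 EGFR ligand genes (y axis, linear, from 0) in each of the 6 libraries (x axis), stacked by gene. The sums are 18.8 and 19.0 in sh_TDP43, 49.1 and 44.9 in sh_SRSF3, and 71.7 and 76.8 in sh_control, with HBEGF the widest band in sh_control and AREG in sh_SRSF3.

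EGFR (ENSG00000146648; GRCh37 chromosome 7, 55086714 to 55279321, plus strand) encodes the receptor shared by most of these ligands. It was at 571 and 540 CPM in sh_TDP43, at 551 and 604 CPM in sh_SRSF3, and at 450 and 524 CPM in sh_control. All 4 knockdown libraries lay above both sh_control libraries, whose own gap was of a like size. In log2 the difference was 0.19 (SE 0.10, -0.03 to 0.41, edgeR adjusted p = 0.145) in sh_TDP43 and 0.25 (SE 0.10, 0.03 to 0.46, edgeR adjusted p = 0.0442) in sh_SRSF3. The sh_SRSF3 call was lost with upper-quartile scaling (0.09), with only these 2 groups in the fit (0.23), and in 5 of 6 fits that left out 1 library (0.14 to 0.31), the exception being sh_control replicate 2. In sh_TDP43 the call was gained with upper-quartile scaling (0.28) and without sh_control replicate 2 (0.30). In RPKM EGFR had the highest mean of the 8 genes in both knockdowns, at 44.4 ± 1.77 in sh_TDP43 and 46.2 ± 2.99 in sh_SRSF3 (SD, n = 2 each).

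ERBB2 (ENSG00000141736; GRCh37 chromosome 17, 37844167 to 37886679, plus strand), the dimer partner without a ligand, was at 87.2 and 87.7 CPM in sh_TDP43, at 88.5 and 90.3 CPM in sh_SRSF3, and at 84.0 and 88.3 CPM in sh_control. Its log2 fold change was 0.02 in sh_TDP43 and 0.05 in sh_SRSF3, with 95% intervals of -0.17 to 0.21 and -0.14 to 0.24. Between the knockdowns it was -0.03 (-0.22 to 0.16) and, with upper-quartile scaling, 0.22, which passed the threshold (edgeR adjusted p = 0.0419).

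ERBB3 (ENSG00000065361; GRCh37 chromosome 12, 56473641 to 56497289, plus strand), the neuregulin receptor, was at 11.3 and 8.93 CPM in sh_TDP43, at 19.3 and 22.2 CPM in sh_SRSF3, and at 6.86 and 9.89 CPM in sh_control. The sh_SRSF3 libraries stood above the other 4, and sh_TDP43 overlapped sh_control. The log2 fold change was 1.31 (SE 0.19, 0.91 to 1.71) in sh_SRSF3 and 0.27 (SE 0.19, -0.13 to 0.68, edgeR adjusted p = 0.254) in sh_TDP43, which became 0.56 (edgeR adjusted p = 0.0382) without sh_control replicate 2. Between the knockdowns, sh_TDP43 over sh_SRSF3, it was -1.04 (SE 0.18, -1.43 to -0.64). In RPKM ERBB3 was the lowest of the 8 genes in every group, at 1.17 in sh_TDP43, 2.40 in sh_SRSF3 and 0.967 in sh_control, and in sh_SRSF3 its libraries overlapped those of EREG at 2.64.

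Ordered by mean RPKM in sh_TDP43, EGFR (44.4), ERBB2 (8.47) and HBEGF (5.83) were followed by TGFA (3.86), AREG (3.56) and NRG1 (3.45), whose neighbours overlapped, then EREG (2.54) and ERBB3. In sh_SRSF3, EGFR (46.2) and AREG (25.1) were followed by HBEGF (9.87), TGFA (8.81) and ERBB2 (8.66), whose neighbours overlapped, then NRG1 (4.73), EREG and ERBB3. In sh_control, HBEGF and EGFR came first and overlapped, followed by TGFA (17.6), then AREG (9.73) and ERBB2 (8.35), which overlapped, then NRG1 (6.57), EREG (5.08) and ERBB3. ERBB2 kept to 8.35 to 8.66 RPKM while HBEGF, TGFA and AREG passed it in some groups and not in others.

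Genes whose profile over the 6 libraries was nearest to each of the 8 were ranked by Euclidean distance between centred log2 CPM among 12598 genes of at least 1 CPM. Nearest to HBEGF were STEAP3, CAMK4 and MT1E, at distances of 0.311, 0.327 and 0.638. Nearest to TGFA were ITGA6, TRIB2 and SEPN1, to EREG TMEM170A, BAMBI and CFAP44, and to AREG POMK, PHTF2 and AZIN1, at 0.172 to 0.488. NRG1 was nearest to SLC25A30, LRIG3 and PRKAB1, at 0.0715 to 0.139, and LRIG3 encodes a membrane protein of a family known for acting on ERBB receptors. POMK, near AREG, had a log2 fold change of -1.65 in sh_TDP43 and 1.15 in sh_SRSF3. EGFR was nearest to ATM, MED1 and UBR1, ERBB2 to GANAB, KHNYN and FRYL, and ERBB3 to ENSG00000212998, PBLD and UTRN, at 0.0565 to 0.245. The 6 points of each profile come from 3 groups, so a small distance mainly reflects alike group means.

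The 10 genes that act on ligand release include proteases and their helpers and 1 inhibitor, TIMP3, so the list's counts give no direction for release. This list and the pathway lists after it were chosen with earlier results of these data known, so their counts are a description only. In sh_TDP43, 6 were lower and 0 higher, TIMP3 among the lower, with a median log2 fold change of -0.45. In sh_SRSF3, 5 were lower, TIMP3 among them, and 4 higher, with a median of -0.83. Over all genes tested, 24.1% were called lower and 20.7% higher in sh_TDP43 (median 0.00), and 34.4% lower and 32.5% higher in sh_SRSF3 (median -0.03). ADAM17, the main sheddase of HBEGF, AREG, EREG and TGFA, averaged 18.5 CPM in sh_TDP43, 80.0 CPM in sh_SRSF3 and 29.9 CPM in sh_control. Its log2 fold change was -0.69 in sh_TDP43 (SE 0.12, edgeR adjusted p = 0.00047) and 1.42 in sh_SRSF3 (SE 0.12, edgeR adjusted p = 1.69e-07), and -2.11 between the knockdowns. TIMP3, an inhibitor of ADAM17, averaged 201 CPM in sh_TDP43, 34.3 CPM in sh_SRSF3 and 445 CPM in sh_control, with log2 fold changes of -1.15 and -3.70 (SE 0.14 and 0.16). ADAM19, a protease linked to neuregulin release, fell in both knockdowns (-1.62 in sh_TDP43 and -2.76 in sh_SRSF3, SE 0.12 and 0.13). ADAM15 and RHBDF2, an inactive rhomboid that ADAM17 needs to mature, fell in sh_SRSF3 (-1.79 and -1.76), and ADAM12 fell in sh_TDP43 (-1.07, SE 0.29), a call lost without sh_TDP43 replicate 1 or sh_control replicate 2. RHBDF2 was also lower in sh_TDP43 (-0.59, SE 0.16, edgeR adjusted p = 0.00742), where ADAM15 was at -0.09 (edgeR adjusted p = 0.469). ADAM9 was at 0.19 in sh_TDP43 (edgeR adjusted p = 0.117) and fell by 1.25 in sh_SRSF3. ADAM10, which sheds EGF and BTC, was lower in sh_TDP43 (-0.32) and higher in sh_SRSF3 (0.63).

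Of 16 adaptors and effectors that dock on active receptors, 4 were higher and 3 lower in sh_TDP43 (median 0.07), where 20.7% of all genes were called higher and 24.1% lower. In sh_SRSF3 6 were higher and 5 lower (median 0.07), where 32.5% of all genes were called higher and 34.4% lower, and in both knockdowns the list lay near these shares. In sh_TDP43 7 were higher with upper-quartile scaling, and 1 was lower without sh_TDP43 replicate 2. SHC1, an adaptor that recruits GRB2, averaged 274 CPM in sh_TDP43, 317 CPM in sh_SRSF3 and 174 CPM in sh_control, with log2 fold changes of 0.66 and 0.87 (SE 0.10 each). PTPN11, the phosphatase SHP2, rose by 1.05 in sh_SRSF3 and by 0.35 in sh_TDP43. PIK3CA, the catalytic PI3 kinase subunit, fell in sh_SRSF3 (-1.24, SE 0.13) and was at 0.01 in sh_TDP43 (edgeR adjusted p = 0.941). The regulatory subunit gene PIK3R1 rose in sh_TDP43 (0.65) and fell in sh_SRSF3 (-0.34), and PIK3R3 fell in sh_TDP43 (-0.98) and rose in sh_SRSF3 (0.89). PIK3R2 was called lower in sh_TDP43 at 0.0271 CPM against 0.305 CPM in sh_control, and without 1 of the libraries of either group that call was lost in 3 of 4 fits.

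Genes that remove or silence receptors were split in sh_TDP43, with 6 of 21 higher and 6 lower (median 0.03), beside 20.7% and 24.1% of all genes. In sh_SRSF3, 11 were higher and 6 lower (median 0.54), beside 32.5% and 34.4% of all genes. CBLB, a ubiquitin ligase of EGFR, averaged 16.5 CPM in sh_TDP43, 66.4 CPM in sh_SRSF3 and 10.6 CPM in sh_control, with log2 fold changes of 0.63 and 2.64 (SE 0.16 each). HGS and STAM sort ubiquitinated receptors on endosomes. HGS rose in sh_TDP43 (0.84) and in sh_SRSF3 (0.60), and STAM rose in sh_SRSF3 (1.24) and was at -0.01 in sh_TDP43 (edgeR adjusted p = 0.939). RNF41, a ubiquitin ligase of ERBB3, rose by 1.19 in sh_SRSF3, where ERBB3 itself was higher. PTPRJ, a phosphatase that acts on EGFR, averaged 87.7 CPM in sh_TDP43, 25.6 CPM in sh_SRSF3 and 220 CPM in sh_control, with log2 fold changes of -1.33 and -3.10 (SE 0.10 and 0.11). LRIG3 fell in sh_TDP43 (-0.84) and in sh_SRSF3 (-0.43). CBLC was called higher in sh_TDP43 at 0.364 CPM against 0.0530 CPM in sh_control, a call lost with DESeq2 (adjusted p = 0.135) and without any 1 library of either group.

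Of 15 genes commonly induced by ERK, 14 were lower and 1 higher in sh_TDP43 than in sh_control, with a median log2 fold change of -0.77, where 24.1% of all genes were called lower and 20.7% higher. In sh_SRSF3, 9 were lower and 1 higher, with a median of -1.43, where 34.4% of all genes were called lower and 32.5% higher. There, 2 were higher with DESeq2, with its size factors in edgeR, and with a replicate block. Nothing is read from these counts, since the list was chosen with earlier results of these data known. SPRY1, SPRY4 and ETV4 fell in both knockdowns. SPRY1, a feedback inhibitor of RAS signalling, averaged 13.0 CPM in sh_TDP43, 4.54 CPM in sh_SRSF3 and 50.4 CPM in sh_control, with log2 fold changes of -1.96 and -3.48 (SE 0.19 and 0.21). SPRY4 was at -1.52 and -2.58, and the transcription factor gene ETV4 at -1.70 and -2.80, in sh_TDP43 and in sh_SRSF3. CCND1, which encodes cyclin D1, averaged 383 CPM in sh_TDP43, 158 CPM in sh_SRSF3 and 765 CPM in sh_control. DUSP6, an ERK phosphatase, averaged 78.9 CPM in sh_TDP43, 27.2 CPM in sh_SRSF3 and 129 CPM in sh_control. DUSP5 fell in sh_TDP43 (-1.23, SE 0.09) and was at 0.15 in sh_SRSF3 (edgeR adjusted p = 0.156). EPHA2 fell in sh_TDP43 (-0.74) and rose in sh_SRSF3 (0.50), and SPRED1 was the 1 gene called higher in sh_TDP43 (0.27, edgeR adjusted p = 0.0271), a call lost without any 1 sh_TDP43 or sh_control library. Set directly against each other, 10 of the 15 were higher in sh_TDP43 than in sh_SRSF3 and 4 lower, with DUSP6 at 1.54, SPRY1 at 1.52, CCND1 at 1.28 and DUSP5 at -1.37. In the same libraries the summed ligand RNA was lower in sh_TDP43 than in sh_SRSF3. A link between ligand RNA and these genes was not tested. Protein and phosphorylation were not measured.

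**Figure D4:**
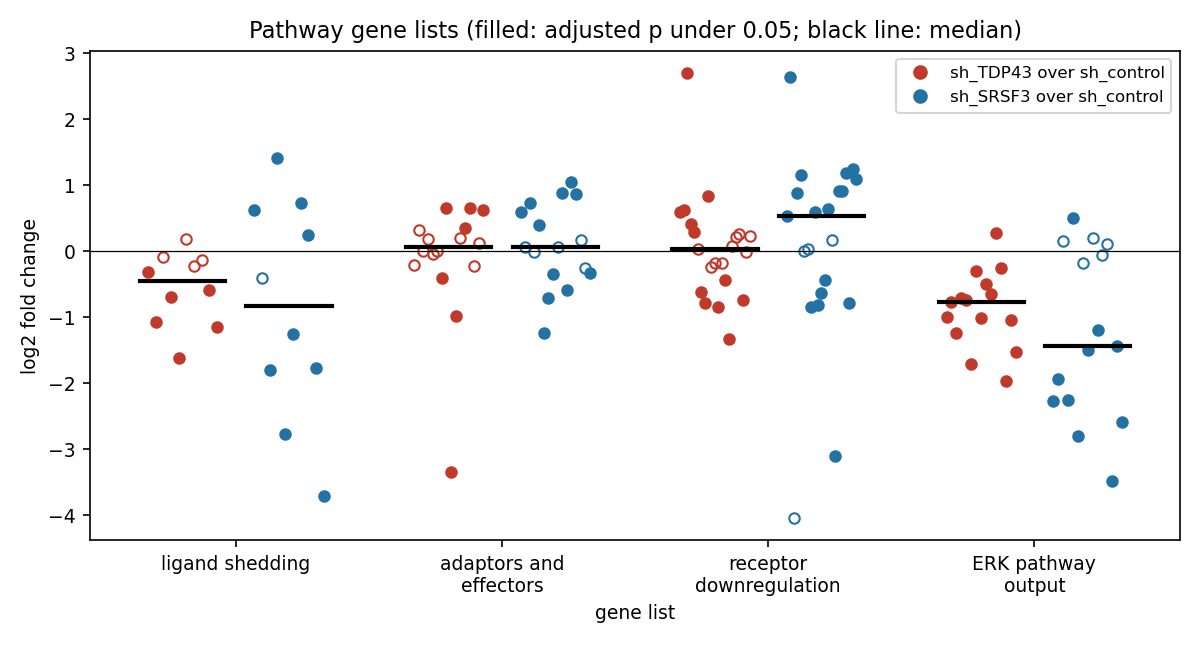
Log2 fold change over sh_control (y axis) of every tested gene in 4 pathway lists (x axis), red for sh_TDP43 and blue for sh_SRSF3; filled points have an edgeR adjusted p under 0.05 and black lines are medians. ERK output medians are -0.77 and -1.43, and receptor downregulation medians 0.03 and 0.54; the open point at -4.04 is CBLC, which had 0 reads in sh_SRSF3, so its position is no measure of size.

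RIP levels are in FPKM, scaled by gene length and library depth, as deposited. With 1 RIP and 1 input library per protein the ratios have no replicate check and no test. Summed over genes, FPKM came to 185564 in the Flag-TDP43 RIP against 505828 in its input, and to 283345 in the Flag-SRSF3 RIP against 531147 in its input, so the libraries differ in make-up as a whole. TARDBP was at 80.4 FPKM in the Flag-TDP43 RIP and 14.2 FPKM in its input, against 1.48 and 1.76 FPKM in the RIP and input of Flag-SRSF3 cells. SRSF3 was at 91.3 FPKM in the Flag-SRSF3 RIP and 54.9 FPKM in its input, against 83.4 and 29.3 FPKM in the RIP and input of Flag-TDP43 cells. Ratios were taken as log2 of RIP over input with 1 FPKM added to each, for genes of at least 1 FPKM in either, and understate the ratio of low genes.

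Of the 8 genes, 7 were kept and 0 of 7 passed 2-fold in either RIP, where 28.9% of 10647 genes did for Flag-TDP43 (15.9% higher and 13.1% lower in the RIP) and 21.5% of 10693 genes for Flag-SRSF3 (14.7% higher and 6.82% lower in the RIP). HBEGF was at 22.0 FPKM in the Flag-TDP43 RIP against 24.6 in its input, and at 30.6 FPKM in the Flag-SRSF3 RIP against 26.8 in its input. The ratios were -0.15 and 0.19, close to the medians of all genes kept, 0.03 and 0.18. TGFA was at 15.8 FPKM in the Flag-TDP43 RIP against 13.1 in its input, and at 4.40 FPKM in the Flag-SRSF3 RIP against 9.30 in its input. Its ratio of -0.93 for Flag-SRSF3 had 7.84% of genes below it, while that for Flag-TDP43 was 0.25. AREG was at 30.6 FPKM in the Flag-TDP43 RIP against 56.1 in its input, and at 45.4 FPKM in the Flag-SRSF3 RIP against 46.6 in its input. Its ratios were -0.85, with 16.6% of genes below it, and -0.04. EREG was at 2.11 against 3.28 FPKM for Flag-TDP43 and at 2.52 against 3.33 FPKM for Flag-SRSF3 (RIP against input), ratios of -0.46 and -0.30.

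NRG1 was higher in the RIP than in the input for both proteins, at 3.66 against 2.0 FPKM for Flag-TDP43 and 2.93 against 1.5 FPKM for Flag-SRSF3, ratios of 0.64 and 0.65. ERBB2 likewise stood at 6.35 against 3.01 FPKM for Flag-TDP43 and 5.99 against 3.26 FPKM for Flag-SRSF3, ratios of 0.88 and 0.71. EGFR differed in direction between the proteins. It was at 9.78 FPKM in the Flag-TDP43 RIP against 18.2 in its input (ratio -0.83, with 17.2% of genes below it), and at 27.4 FPKM in the Flag-SRSF3 RIP against 14.9 in its input (ratio 0.83, with 80.2% of genes below it). This difference was not tested, since each ratio rests on 1 pair of libraries. ERBB3 was under 1 FPKM in all 4 libraries, at 0.783 against 0.0504 FPKM for Flag-TDP43 and 0.223 against 0.343 FPKM for Flag-SRSF3.

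A second deposited table, with a normalised signal of unstated unit for the same libraries, gave other sizes for some of these genes. In the authors' deposited tables the log2 fold change of EGFR was -0.90 (FPKM) and -0.21 (signal) for Flag-TDP43, and 0.87 and 1.34 for Flag-SRSF3. For ERBB3 and Flag-TDP43 the authors' deposited tables gave 3.96 (FPKM) and -0.70 (signal), opposite in sign. Its levels in RIP and input were 0.783 and 0.0504 in FPKM, and 2.79 and 4.53 in the signal. The cause of this disagreement was not tested. For TGFA and Flag-SRSF3 the authors' deposited tables gave -1.08 and -0.52. For HBEGF and Flag-SRSF3 they gave 0.19 and -0.09 in the authors' deposited tables. The authors' deposited signal table also carries 2 text marks per gene, named bind1 and bind2, without saying which protein each refers to. All 8 genes carry both marks, as do 15.4% of all genes of the table and 65.4% of the 11530 genes of at least 1 FPKM in any RIP or input library. ERBB3, under 1 FPKM throughout, is outside that second set. None of the other 7 genes of the family carries both marks, and all 7 were under 1 FPKM in every RIP and input library.

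Levels in the RIP inputs and in the control hairpin libraries come from separately processed tables and are set side by side only. AREG was at 56.1 and 46.6 FPKM in the Flag-TDP43 and Flag-SRSF3 inputs beside 9.73 RPKM in sh_control, 5.28 times as high on average. The other 7 genes were at 0.203 to 0.650 times their sh_control RPKM in the inputs. AREG is also the gene whose count in the GRCh37 table is affected by a near copy, and the part of that in the gap was not tested.

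**Figure D5:**
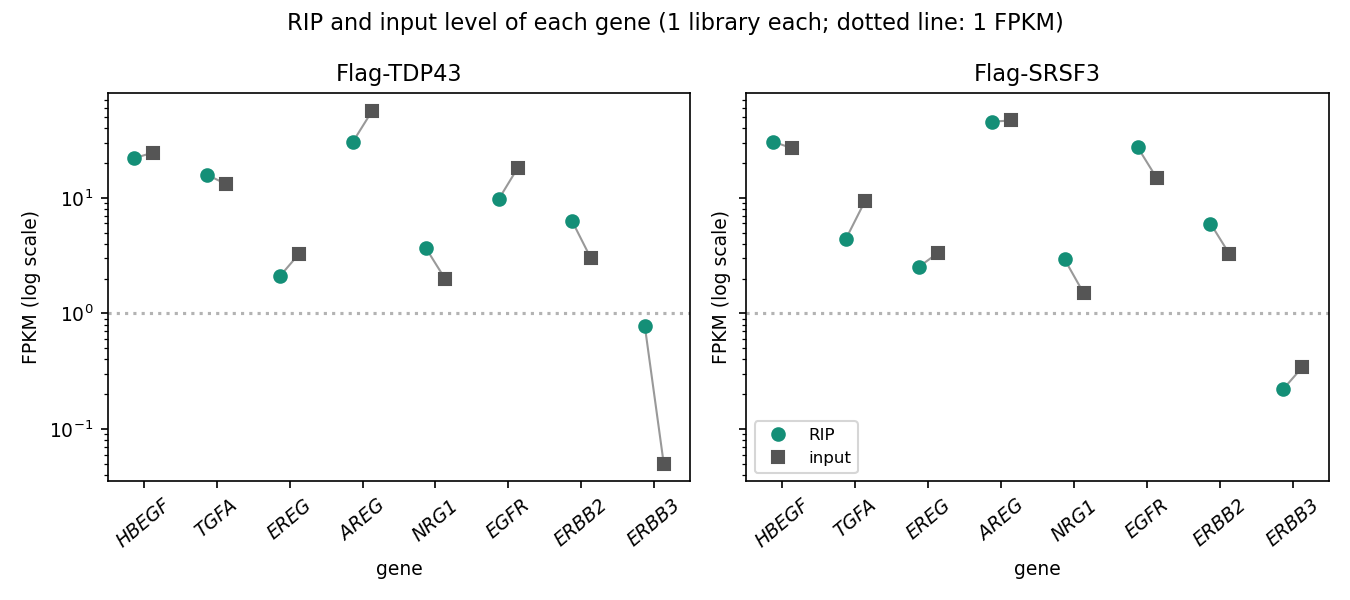
FPKM (y axis, log scale) of each of the 8 genes (x axis) in RIP (green circles) and input (grey squares), for Flag-TDP43 and Flag-SRSF3, with 1 library each and a dotted line at 1 FPKM. EGFR lies below its input for Flag-TDP43 (9.78 against 18.2) and above it for Flag-SRSF3 (27.4 against 14.9), and ERBB3 lies under the line in all 4 libraries.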

How the data were processed

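The authors counted reads per gene in the knockdown libraries with featureCounts v1.4.6-p5 over exons, with no strand or read-pair option, per the file headers; without strand, overlapping and antisense reads cannot be told apart. The count table is on GRCh37, and its exon length column (other unit, bases) is as deposited. The submitters' processing notes list STAR 2.5.2a, HISAT2 2.0.5, StringTie 1.3.0 and Cufflinks with no role given. The deposited RIP table holds FPKM and the authors' log2 fold changes, per the file headers; a second deposited table holds a normalised signal, log2 fold changes and text marks. The tools behind both are not given in the sources used here.

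Groups follow the sample titles. Of 8 count columns, 2 match no label and were not used, so the combined knockdown planned for is not analysed here. The test on the counts of 6 libraries was edgeR 4.0.16 under R 4.3.3 (TMM, filterByExpr, quasi-likelihood F-test, two-sided, 1 fit without covariates, 3 residual degrees of freedom), with Benjamini-Hochberg adjustment over 15026 genes and calls at 0.05. Counting depth was 34457445 to 38326930 reads, and the lowest FPKM steps correspond to 27.7 to 28.4 M reads per RIP or input library. RIP ratios used 1 FPKM added and a minimum of 1 FPKM. The members and gene lists were chosen with earlier results of these data known. Named genes are the 8 members, the targeted genes, the other family genes and, per list and comparison, up to 4 called genes with the largest change; other list genes named were chosen after their values were seen. Tested alternatives were DESeq2 1.42.0, other scalings, no low-count filter, fewer libraries, a replicate block, another pseudocount, minimum, centring and RIP table. Of the 27745 genes, 27068 were named by the files and 89 by a reference table.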

Additional observations from a re-analysis of the deposited data

Results flagged for a closer look

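AREG moved in opposite directions in the knockdowns, lower in both sh_TDP43 libraries and higher in both sh_SRSF3 libraries than in either sh_control library. The direct comparison of sh_TDP43 with sh_SRSF3 gave a log2 fold change of -2.82, and -2.64 with the near copy of AREG added.

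EGF moved the other way, higher in both sh_TDP43 libraries and lower in both sh_SRSF3 libraries than in either sh_control library. The direct comparison of sh_TDP43 with sh_SRSF3 gave a log2 fold change of 3.39.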

How the results depend on the processing

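No called value turned its direction under the alternatives run. Uncalled values did in places, such as HBEGF in the Flag-SRSF3 RIP (0.19, and -0.08 in the second table) and ERBB2 between the knockdowns (-0.03, and 0.22 with upper-quartile scaling). Of the fold changes of single genes, 1098 kept their side of the threshold, 5 gained and 27 lost their call; 370 list counts stayed within 1.5 times and 20 moved further; 46 RIP ratios kept their size and 20 moved. With 0.1 FPKM added in place of 1, 1 of the 7 members passed 2-fold in the Flag-TDP43 RIP (ERBB2, 1.06) and 1 in the Flag-SRSF3 RIP, and 3484 genes did in the Flag-SRSF3 RIP, against 2303. Centred on the median gene, 1 member passed for Flag-SRSF3 (TGFA, -1.11), and in the second deposited table, an alternative chosen after seeing the data, 1 did (EGFR, 1.31). The cause was not tested.

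Without 1 library at a time, genes called numbered 4486 to 6576 in sh_TDP43 (6728 with all), lowest without sh_TDP43 replicate 2, 8749 to 9796 in sh_SRSF3 (10045 with all) and 8268 to 10165 between the knockdowns (9842 with all). Members called numbered 5 to 7, 6 to 7 and 5 to 5 in these comparisons. DESeq2 called 6385, 9691 and 9451 genes.

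Same-numbered libraries share only a number in the labels, which name no batch. Over all tested genes, the correlation of their deviations from the group means was 0.0743, 0.0964 and 0.0406. A batch shared by part of the genes was not tested. With the replicate number as a block, 7672, 10565 and 10413 genes and 6, 7 and 5 members were called, the added member being EGFR in sh_TDP43 (0.19, edgeR adjusted p = 0.0456). The combined knockdown was not run.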
